A study of Mus musculus with 13 samples.

Results

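The change from lactation day 7 to involution day 2 was measured in mammary glands of mice labelled as conditional Jak1 knockouts. It rests on 7 of the 13 libraries of the series: 3 knockout glands at lactation day 7 and 4 knockout glands at involution day 2. The other 6 libraries are wildtype controls, 3 at each of these stages, and serve here as a reference. RNA came from flash-frozen whole glands of females, so epithelium, fat, stroma, vessels and immune cells are all in each library. The labels give neither the agent that drives the Jak1 deletion nor the exons it removes, and they name no strain or age.

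Involution is the regression of the milk-producing gland after suckling ends. Milk that is no longer removed is followed by leukaemia inhibitory factor, LIF, made by the epithelium itself. LIF and oncostatin M signal through receptors that share the gp130 chain, whose associated kinases include JAK1, and these kinases phosphorylate the transcription factor STAT3. STAT3 is known in this tissue for lysosomal cathepsins, acute phase genes and the death of alveolar cells, while prolactin, acting through JAK2 and STAT5, maintains milk synthesis. JAK1 also serves interferon receptors and several interleukin receptors. The comparison asks which stage changes are still seen in glands labelled as lacking this kinase.

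Libraries are named by mouse number, and values are given in the order M44174, M42734 and M43767 at lactation and M43196, M43767, M44176 and M44440 at involution. Number M43767 stands at both stages among the knockouts, as M43768 does among the controls; the labels do not say whether such a number is 1 female sampled at both. The unit is FPKM, the fragments of a gene divided by its length and by the size of the library. The stages were deposited in separate tables that differ in scale: the upper quartile of deposited FPKM was 3.06 to 3.16 in the lactation libraries and 8.61 to 9.02 in the involution libraries. Each library was therefore divided by a median-of-ratios factor over the 8548 genes with at least 1 FPKM in all 7, and the result is called rescaled FPKM. A rise or fall below is relative to the typical gene, and stage and table cannot be told apart. Across 12130 genes the correlation of log2 values was 0.934 to 0.957 within lactation, 0.911 to 0.946 within involution and 0.805 to 0.871 between the stages, and the first principal component, with 58.2% of the variance, separated them.

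Jak1 itself was read in every knockout library. Its deposited FPKM was 9.51, 10.2 and 11.2 in the knockout glands and 6.18, 14.0 and 14.2 in the control glands at lactation. At involution it was 23.0, 22.2, 26.3 and 17.3 in the knockout glands and 24.3, 24.0 and 24.6 in the control glands. The ranges overlapped at lactation; at involution 3 knockout glands lay below all controls and 1 above them. These values sum the whole gene and the removed exons are not known here, so they do not check the deletion, and "knockout" below means the label. On the rescaled scale Jak1 stood at 15.8, 17.0 and 19.4 at lactation and at 15.3, 15.4, 17.4 and 11.8 at involution, a log2 change of -0.21 ± 0.16 (SE; adjusted p = 0.322), which is 1.02 without rescaling.

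A large part of the transcriptome moved between the stages in knockout glands. Of the 12130 genes tested with limma, 5097 passed an adjusted p of 0.05 (42%), of which 3131 were higher at involution (25.8%) and 1966 lower (16.2%). Rises and falls counted in gene lists below are to be read beside the 25.8% and 16.2%. In whole glands, fewer cells of a type and less RNA per cell cannot be told apart, here and in the results that follow. At least 2-fold changes were called for 1247 genes that rose (10.3%) and 847 that fell (6.98%). For 5808 genes (47.9%) all 4 involution values lay on one side of all 3 lactation values. Without rescaling the changes shift upward, with a median of 1.14 in place of 0.17, so the 3131 rises could only stay positive. Of the 1966 falls 706 stayed negative there. Rises and falls alike are statements about a gene relative to the rest. The split was 10187 higher and 300 lower without rescaling, and 2109 higher and 2648 lower after quantile normalization. Without both libraries numbered M43767, 1751 genes rose and 1131 fell. The filter of at least 1 FPKM in at least 3 libraries used deposited values, which are higher at involution. Low genes therefore entered more easily through that stage. With this filter on rescaled FPKM, 11649 genes were tested, of which 2970 rose and 2007 fell.

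**Figure D1:**
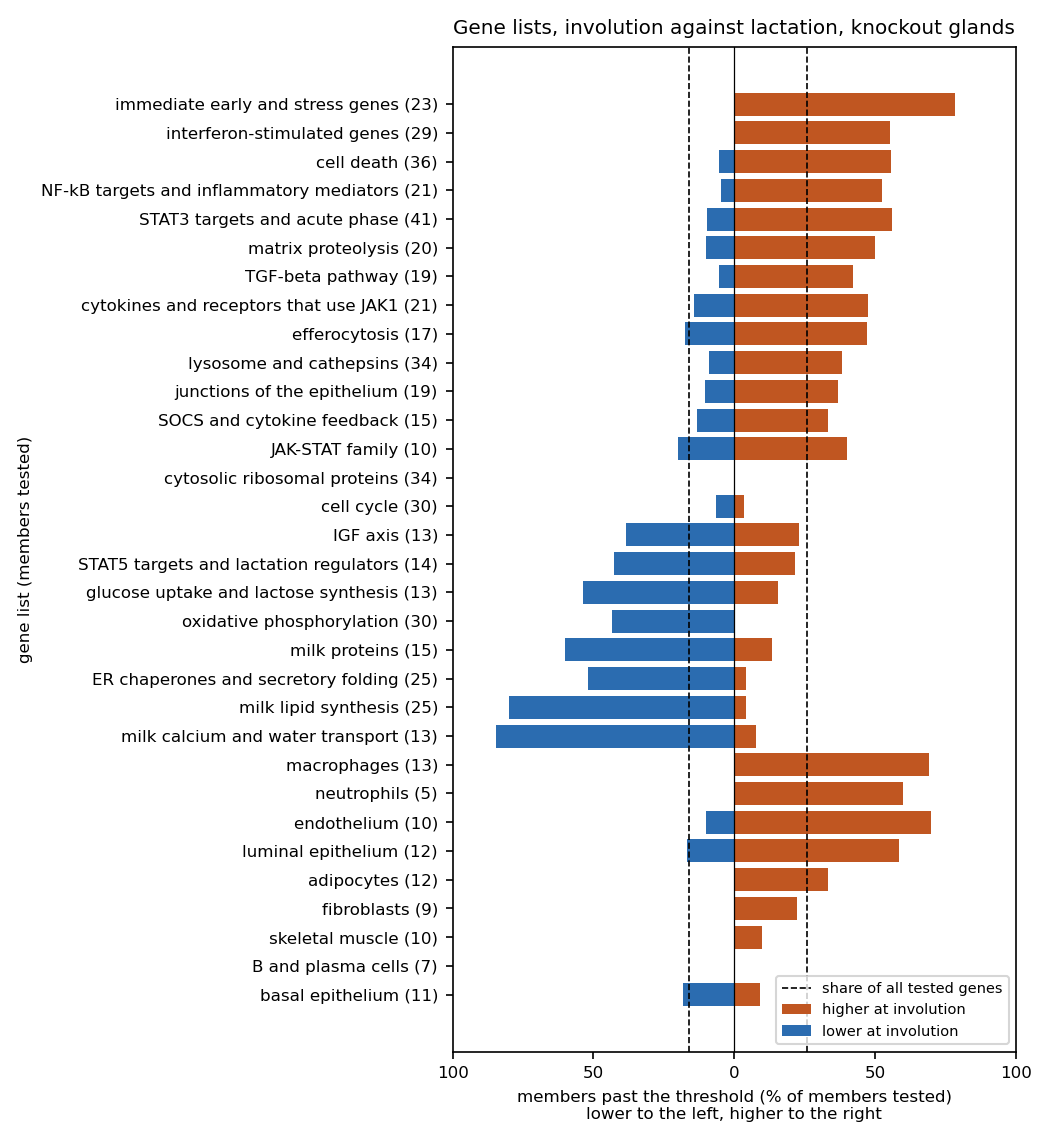
Share of the tested members of each gene list that passed the threshold, in percent, with members higher at involution to the right and lower to the left; dashed lines mark the 25.8% and 16.2% of all tested genes, and lists with under 5 tested members are left out. Lipid synthesis and calcium transport reach farthest to the left and immediate early genes far to the right; without rescaling all 13 oxidative phosphorylation falls and 8 of 13 chaperone falls turn positive.

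The ligand, a receptor and the transcription factor of the STAT3 pathway all rose in the knockout glands. Lif, the ligand, was at 0.223, 0.125 and 0.219 rescaled FPKM at lactation and at 5.98, 10.4, 2.34 and 12.7 at involution. All 4 involution glands were above all lactation glands, M44176 being the lowest of them, and the log2 change was 2.71 ± 0.43 (adjusted p = 0.00226). Osmr, the oncostatin M receptor, went from 1.42, 1.92 and 2.43 to 9.21, 12.7, 6.62 and 9.80, a log2 change of 1.84 ± 0.22 (adjusted p = 6.12e-04), again without overlap. Stat3 was at 13.1, 13.7 and 16.7 at lactation and at 39.6, 41.6, 41.4 and 47.4 at involution. It rose by 1.49 ± 0.14 on the log2 scale (adjusted p = 2.46e-04), and its 4 involution values lay close together.

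Among the 10 tested members of the JAK and STAT families, 4 rose (Jak2, Jak3, Tyk2 and Stat3) and 2 fell (Stat5a and Stat5b); 2 rose without the lactation library M42734. Jak3, which pairs with JAK1 on receptors with the common gamma chain, rose by 1.39 on the log2 scale. Stat2, an interferon factor, changed by 0.19 ± 0.24 and did not pass. Of the 21 tested cytokines and receptors known to use JAK1, 10 rose and 3 fell, with a median log2 change of 0.56 against 0.17 over all tested genes. Only 6 rose when the lactation library M42734 or M43767 or the involution library M43767 was left out. The interferon receptor chains Ifnar1, Ifnar2 and Ifngr2 rose by 0.91, 0.81 and 1.39, while Ifngr1 changed by -0.13 and did not pass. Il6st, which encodes gp130, changed by 0.40 ± 0.18 (adjusted p = 0.108). Il15, which encodes a lymphocyte cytokine, fell from 32.3, 32.0 and 29.6 to 5.62, 10.2, 6.32 and 6.36. The falls of Lifr and Il4ra, -0.49 and -1.09, turn to 0.67 and 0.13 without rescaling.

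Most tested STAT3 targets and acute phase genes rose. Of 45 listed, 41 passed the low-value filter, 23 rose, 4 fell and 14 did not pass; the median log2 change was 1.42, against 0.17 over all tested genes. Socs3, the feedback inhibitor of gp130 receptors, is a classical STAT3 target and rose in every involution gland. Its promoter is shown because it holds the palindrome TTCNNNGAA to which STAT proteins bind, and so is that of Itih4, a plasma protease inhibitor chain of the acute phase, since they were the only members of the list that both rose and had this motif in the window searched. Each line gives the 250 bases before the RefSeq start on the gene's strand, 5′ to 3′, with the motif in capitals.
Socs3, GRCm38.p6, minus strand, chr11:117969367-117969616: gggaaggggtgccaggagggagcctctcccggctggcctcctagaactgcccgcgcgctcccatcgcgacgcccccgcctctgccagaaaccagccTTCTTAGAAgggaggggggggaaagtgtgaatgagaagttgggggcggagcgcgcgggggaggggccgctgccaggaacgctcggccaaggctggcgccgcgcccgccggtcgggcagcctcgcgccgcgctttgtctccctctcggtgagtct
Itih4, GRCm38.p6, plus strand, chr14:30886226-30886475: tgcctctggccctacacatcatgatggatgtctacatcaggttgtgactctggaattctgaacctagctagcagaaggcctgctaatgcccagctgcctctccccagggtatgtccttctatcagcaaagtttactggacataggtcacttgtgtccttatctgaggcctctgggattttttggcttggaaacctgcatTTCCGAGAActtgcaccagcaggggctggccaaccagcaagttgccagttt
The motif begins at position -154 from the Socs3 start and at -51 from the Itih4 start. Both windows lie upstream of the coding transcript, and the Socs3 window also covers an exon of a non-coding Socs3 transcript in the GENCODE annotation. The motif is its own reverse complement, so 1 search covers both strands. In windows of 300 bases, 50 of them after the start, it was found in 7 of 36 list genes that have a window (19.44%), in 2 of the 18 that rose (11.11%) and in 9.55% of all genes with a window. A match describes the letters of this window and is not a binding site.

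Socs3 stood at 0.772, 0.378 and 0.662 rescaled FPKM at lactation and at 5.59, 7.86, 5.58 and 6.64 at involution. Its log2 change was 2.21 ± 0.16 (adjusted p = 8.29e-05), with no overlap. Itih4 rose from at most 0.257 to 4.38, 9.34, 8.70 and 1.09, so the lowest involution gland, M44440, was well below the other 3. Bcl3, an atypical IkB protein, and Cebpd, a transcription factor of the involution switch, each rose by 1.54 without overlap. Bcl3 went from 2.46, 3.70 and 4.09 to 11.9, 11.5, 10.01 and 13.4, and Cebpd from 6.21, 14.2 and 9.33 to 30.6, 28.4, 25.0 and 34.3.

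Secreted acute phase products spread more between glands. Lrg1, a leucine-rich glycoprotein, went from 12.4, 3.60 and 7.50 to 233, 207, 219 and 117, a log2 rise of 4.55 ± 0.38 (adjusted p = 1.38e-04). Hp, haptoglobin, which binds free haemoglobin, went from 41.4, 4.88 and 19.5 to 426, 774, 733 and 219.6. Cd14, the lipopolysaccharide co-receptor, rose from 25.9, 70.7 and 33.3 to 491, 353, 519 and 684. All 3 genes separated the stages by a wide gap. Lcn2, lipocalin 2, which binds bacterial siderophores, was already at 1089.5, 511 and 824 at lactation and reached 3717, 2267, 2333.5 and 1636, a log2 rise of 1.63 ± 0.37 (adjusted p = 0.00951).

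Serum amyloid and orosomucoid genes changed less clearly. Saa3 was at 27.9, 3.40 and 5.53 at lactation and at 32.8, 20.02, 35.9 and 9.33 at involution, with overlap (log2 change 1.28 ± 0.68, adjusted p = 0.161). M44174 held the high lactation value; without that library Saa3 passes the test. Saa1 and Saa2 had log2 changes of 1.70 ± 1.11 and 0.86 ± 1.00 and did not pass; these genes are near-identical in sequence, so their reads may be split between them. Orm2 rose by 1.73 ± 0.59 (adjusted p = 0.0441), but 7 of the alternative settings end that call, among them leaving out any one involution library. The 4 members that fell were Spp1, Pim1, Il4ra and Hif1a, and the falls of Il4ra and Hif1a turn to 0.13 and 0.32 without rescaling. Spp1, osteopontin, went from 3968, 1372 and 1963 to 387, 68.2, 153 and 96.1.

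**Figure D2:**
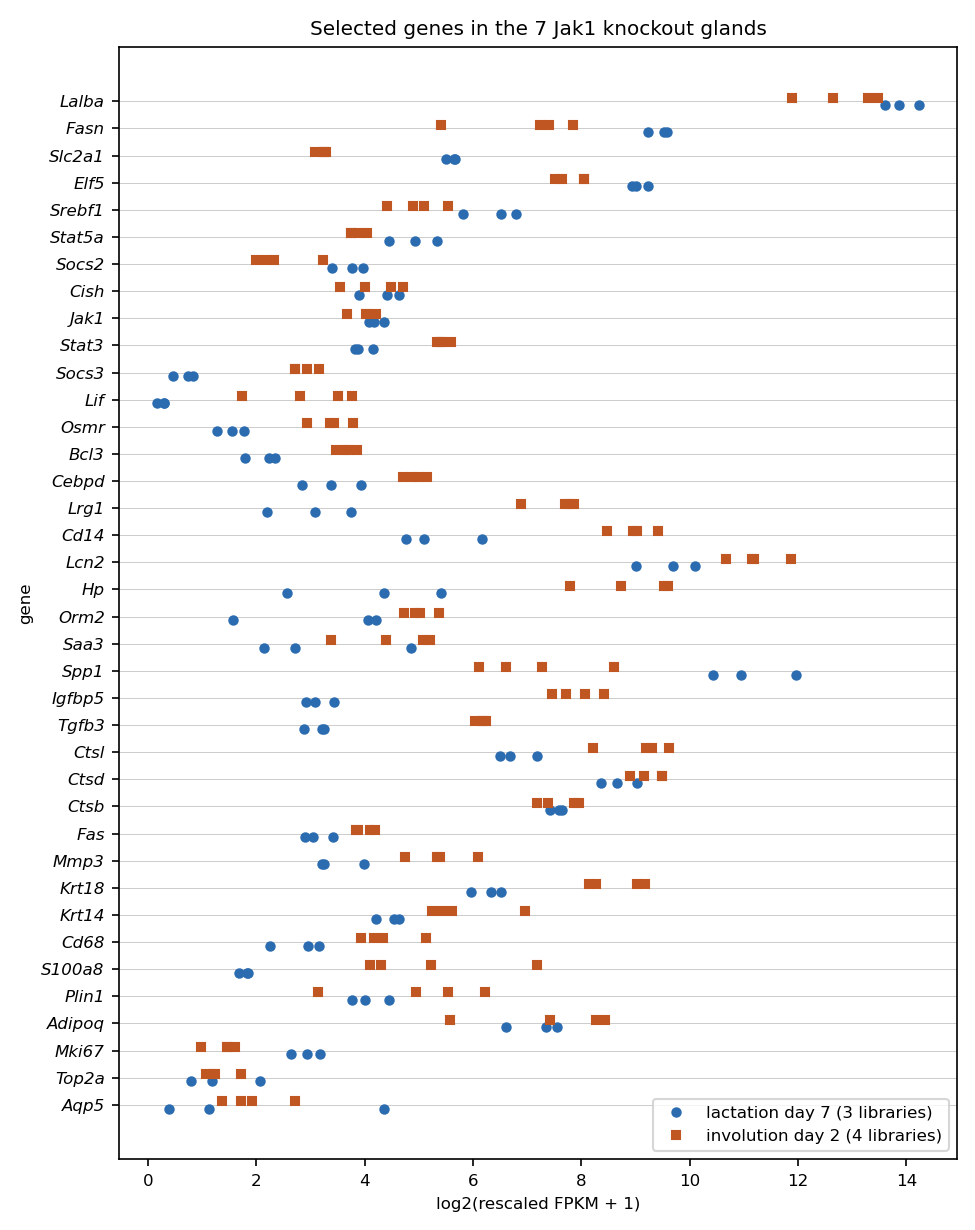
Rescaled FPKM, as log2(value + 1), of the genes given whatever their values, with 1 point for each of the 3 lactation (circles) and 4 involution (squares) knockout libraries. The stages are apart for Stat3, Socs3, Lrg1 and Igfbp5, and they overlap for Jak1, Cish, Saa3, Aqp5 and Adipoq.

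Feedback regulators as a list had 5 rises and 2 falls among 15 tested, with a median of -0.12 that is 1.00 without rescaling. Leaving out the lactation library M42734 or the involution library M43767 left 1 rise, and leaving out M44174 or M44176 left 3. Cish, a target of STAT5, was at 13.9, 20.3 and 23.9 at lactation and at 15.1, 25.1, 10.7 and 21.5 at involution, with overlap (log2 change -0.13 ± 0.30, adjusted p = 0.754; 1.11 without rescaling). Socs2, another STAT5 target, fell by 1.28 on the log2 scale (-0.13 without rescaling).

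Interferon-stimulated genes tended upward: 16 of 29 tested rose and none fell in limma's test (18 and 1 at an unadjusted p under 0.05), with a median of 0.68 and between 11 and 19 rises when 1 library was left out. Isg15, a ubiquitin-like modifier, went from 3.52, 2.02 and 5.29 to 12.4, 9.75, 11.6 and 11.7. Oasl2 rose by 1.22 from values of 0.622 to 2.09 at lactation, and the immunoproteasome subunits Psmb8 and Psmb9 rose by 1.15 and 1.04. Rsad2, Ifit2 and Irf9 had log2 changes of -0.31, 0.05 and 0.02 and did not pass. The gland M43767 was the highest of the 3 lactation glands for Isg15, Oas1a, Oas2 and Oasl2.

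Inflammatory chemokines and immediate early genes rose in the knockout glands. Of 21 NF-kB targets and mediators tested, 11 rose and 1, Nfkbia, fell (log2 change -0.66, which is 0.61 without rescaling). Cxcl1, a neutrophil attractant, went from 1.14, 1.49 and 0.746 to 12.3, 13.7, 9.44 and 16.4. Ccl8, a monocyte attractant, went from 17.8, 5.18 and 5.43 to 206, 144, 99.7 and 46.4, and Ccl7 rose by 2.41. The chemokine rises had no overlap between stages, while Il1b, Tlr2 and Tlr4 had changes between -0.12 and 0.01 and did not pass. Of 23 immediate early and stress genes, 18 rose and none fell in limma's test (19 and 0 at an unadjusted p under 0.05), with a median of 1.15. Junb, a partner in AP-1, rose from 1.41, 2.92 and 1.87 to 21.1, 18.4, 13.6 and 20.6. Gadd45a, a stress response gene, rose by 2.54, and Ier3 by 2.78 with a low value of 26.2 in M44176 beside 86.0 to 123 in the others.

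Milk synthesis genes fell in the knockout glands. Of the 20 milk proteins listed, 5 (Csn1s1, Csn1s2a, Csn1s2b, Csn2 and Wap) are listed at 0 in all 7 libraries, although they are among the most abundant messages of a lactating gland. Such a 0 may be a failed estimate, and no value is drawn from it. Of the 15 tested, 9 fell and 2 rose, with a median of -1.88, and all 9 falls stayed negative without rescaling. Glycam1, a secreted mucin-like milk protein, was at 69403, 70348 and 100632 at lactation and at 4045, 1833, 14346 and 5928 at involution. Lpo, lactoperoxidase, fell from 67.5, 44.0 and 26.1 to 1.46, 0.937, 1.51 and 0.460, and Cel, the bile-salt-activated lipase of milk, fell by 4.06. Lalba, the regulator of lactose synthase, had 12521, 14829 and 19227 at lactation and 10064, 3811, 11402 and 6439 at involution. It did not pass (log2 change -1.07 ± 0.47, adjusted p = 0.0999), and its change was 0.25 without rescaling. With scaling to the total outside milk proteins and short RNA it passes as a fall. Of the 2 that rose, Ltf, the iron-binding lactoferrin, went from 676, 247 and 781 to 3002, 2331, 3652 and 2651. Csn3, kappa-casein, is listed at 0 in all 3 lactation libraries and at 6922.5, 3744, 4716.5 and 1687 at involution. These zeros may also be failed estimates, so no fold is given and its call is not read as a rise. The count of 2 rises and the median include it.

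Genes of lipid synthesis fell. Of 25 genes tested, 20 fell and 1 (Dgat1) rose, with a median of -2.07, and 19 of the 20 falls stayed negative without rescaling. Fasn, fatty acid synthase, was at 737, 602 and 759.5 at lactation and at 168, 149, 228 and 41.4 at involution, a log2 fall of 2.48 ± 0.52 (adjusted p = 0.00716). M44440 had the lowest value for Fasn, Acaca, Acly and Slc25a1, the enzymes and citrate carrier of fatty acid synthesis. Fabp3, a fatty acid binding protein, fell from 14725.5, 13256 and 11171 to 758, 454, 252 and 253. The desaturases Fads1 and Fads2 fell by 3.54 and 4.26, and Srebf1, the transcription factor over many of these genes, fell by 1.39 (-0.10 without rescaling). Plin2, the coat protein of the milk fat droplet, was at 772, 887 and 851 and then at 979, 682, 783 and 763, a log2 change of -0.07 ± 0.21 (adjusted p = 0.805).

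Glucose uptake and lactose synthesis had 7 falls and 2 rises among 13 genes, with a median of -1.12 that is 0.03 without rescaling, although 6 of the 7 falls stayed negative. Slc2a1, the main glucose transporter of the lactating gland, was at 44.2, 49.5 and 49.2 and then at 8.45, 7.43, 8.69 and 8.47. Its log2 fall of 2.39 ± 0.13 (adjusted p = 1.72e-05) separated the stages by a wide gap. B4galt1, the catalytic part of lactose synthase, fell by 2.96. Ugp2, which makes UDP-glucose, changed by 0.04 ± 0.20 and did not pass.

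Transport of calcium, phosphate, zinc and water had 11 falls and 1 rise among 13 tested, with a median of -1.81. Slc34a2, a sodium-phosphate cotransporter of the apical membrane, went from 538, 761 and 636 to 7.38, 8.51, 3.37 and 3.62, a log2 fall of 6.66 ± 0.31 (adjusted p = 1.26e-05). Atp2b2, the calcium pump that loads milk, went from 51.6, 77.9 and 81.4 to 0.974, 0.853, 0.473 and 0.541. Pthlh, the hormone that draws calcium from bone, fell by 4.21. Atp2b1, a related pump, rose by 0.77. The falls of Atp2c2, Atp2a2 and Orai1 turn to 0.23, 0.65 and 0.12 without rescaling, and Aqp5, a water channel, ranged from 0.310 to 19.4 at lactation and did not pass.

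Regulators of lactation split. Of 14 tested STAT5 targets and regulators, 6 fell and 3 rose, and 3 of the 6 falls stayed negative without rescaling, where the median of -0.34 becomes 0.80. Prlr, the prolactin receptor, was at 16.2, 9.89 and 13.5 and then at 3.79, 4.03, 4.37 and 3.88. Akt1, a kinase of lactational metabolism, went from 119.8, 145 and 136 to 44.2, 40.7, 37.6 and 34.4. Both were lower without overlap and stayed negative without rescaling, at -0.33 and -0.45. Elf5, the alveolar transcription factor, fell by 1.24 (a change of 0.07 without rescaling), from 487, 596 and 514 to 264, 199, 182 and 263. Stat5a, which carries the prolactin signal, fell by 1.05 (a change of 0.21 without rescaling), and its call is lost without both M43767 libraries. Gata3, a luminal transcription factor, and Cdkn1b, a cell cycle inhibitor, rose by 0.89 and 0.90.

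Lysosomal genes were mixed. Of 34 tested, 13 rose and 3 fell, beside 25.8% and 16.2% of all tested genes, with a median of 0.40 against 0.17; without both M43767 libraries 8 rose and 1 fell. Ctsl, the cathepsin named in STAT3-driven lysosomal death, was at 144, 102 and 89.8 at lactation and at 630.0, 295, 784 and 580.4 at involution, a log2 rise of 2.29 ± 0.34 (adjusted p = 0.00173). Ctsb, its companion in that process, was at 190.3, 171 and 199 and then at 232, 166, 248 and 143, a change of 0.05 ± 0.23 (adjusted p = 0.889). Ctsb overlapped between the stages and Ctsl did not. Ctsd changed by 0.57 ± 0.25 (adjusted p = 0.0964) and did not pass. It does pass after quantile normalization and with scaling to the total outside milk proteins and short RNA. Lgmn, legumain, and Cd63, a lysosomal tetraspanin, rose by 1.89 and 1.79, and Tfeb, a transcription factor of lysosome formation, rose by 0.55. Ctsc fell by 1.93 and stayed negative without rescaling, while the falls of Npc2 and Atp6v1h did not.

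Cell death genes had 20 rises and 2 falls among 36 tested, with a median of 0.50. Bik, a pro-apoptotic member with only a BH3 domain, went from 1.65, 0.861 and 1.13 to 24.2, 14.4, 22.4 and 47.5, a log2 rise of 3.56 ± 0.35 (adjusted p = 2.64e-04). Bax, an executioner at the mitochondrial membrane, rose by 1.55 and Bmf by 1.30. The protective Bcl2l1 and Mcl1 also rose, by 1.61 and 0.60. Tnfrsf12a, the TWEAK receptor, went from 48.9, 24.0 and 30.7 to 129.8, 88.1, 108 and 163, and its ligand gene Tnfsf12 rose by 1.12. Fas, a death receptor, rose by 0.88, a call that is lost when all 13 libraries enter 1 fit. Ripk1, a kinase of death receptor signalling, fell by 0.51 (a change of 0.63 without rescaling). Casp6, Casp8 and Casp9 had changes between -0.29 and 0.08 and did not pass.

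Genes for clearing dead cells had 8 rises and 3 falls among 17, beside 25.8% and 16.2% of all tested genes. Tyro3, a receptor for bridging proteins on dying cells, went from 2.25, 2.39 and 2.35 to 19.98, 23.3, 24.3 and 27.4, a log2 rise of 2.88 ± 0.14 (adjusted p = 1.34e-05). Gas6, its ligand, rose by 1.61, Axl by 0.70 and Abca1, a lipid exporter, by 1.53. Mfge8, the bridging protein of milk fat globules, changed by 0.49 ± 0.28 (adjusted p = 0.194). Cd36, a scavenger receptor and fatty acid carrier that milk-producing cells also hold, fell by 1.99.

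Matrix proteolysis had 10 rises and 2 falls among 20 tested, with a median of 0.75. Mmp3, stromelysin 1, went from 14.8, 8.27 and 8.53 to 67.3, 25.7, 39.2 and 41.0, a log2 rise of 1.91 ± 0.33 (adjusted p = 0.00292). The inhibitor Timp2 rose by 1.69, and Plaur, the urokinase receptor of the plasminogen system, by 1.20. Timp1, the inhibitor of Mmp3, was at 21.7, 16.7 and 35.9 and then at 50.7, 23.4, 48.6 and 44.5, which did not pass (adjusted p = 0.106). Adamts5, an aggrecanase, fell from 30.3, 32.1 and 35.3 to 2.79, 2.48, 2.32 and 2.13, and Timp4 fell by 2.47.

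In the TGF-beta pathway 8 of 19 rose and 1, Smad3, fell by 0.61 (a change of 0.55 without rescaling). Over all tested genes 25.8% rose and 16.2% fell. Tgfb3, a milk-stasis-induced death factor, was at 6.34, 8.45 and 8.30 and then at 72.8, 64.9, 74.1 and 70.4, a log2 rise of 3.05 ± 0.14 (adjusted p = 1.34e-05). Tgfb1 rose by 0.69, and Tgfb2 changed by 0.47 and did not pass. Inhbb, an activin subunit, rose by 2.10 and Ltbp1, which binds latent TGF-beta, by 1.53.

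The IGF axis had 3 rises and 5 falls among 13, with a median of 0.06 that is -0.10 after quantile normalization, and it had 2 falls without the lactation library M43767 or the involution library M43196 and 3 without M44174 or M42734. Igfbp5, which sequesters IGF1 from the alveolar cell, went from 9.72, 6.58 and 7.45 to 339, 268, 175 and 210.0, a log2 rise of 4.77 ± 0.25 (adjusted p = 1.67e-05). Igfbp4 rose by 1.72, from 16.8, 21.0 and 20.6 to 75.3, 97.1, 73.5 and 35.8. Irs2, an adaptor of the insulin and IGF receptors, fell by 2.01, from 5.81, 7.85 and 5.18 to 0.643, 0.903, 1.03 and 0.614. Igfbp5 was the largest change of the list in either direction.

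Epithelial structure changed in a gene-specific way. Of 19 junction genes, 7 rose and 2 fell, beside 25.8% and 16.2% of all tested genes. Cldn4, a tight junction claudin, went from 2.80, 1.58 and 2.25 to 90.4, 49.5, 55.4 and 98.8, and Cldn3 from 24.7, 27.3 and 28.9 to 196, 102, 135 and 198. Cldn8 fell from 129, 151 and 119 to 20.9, 32.6, 24.2 and 23.2, and Ocln fell by 0.93 (a change of 0.18 without rescaling). Among 12 tested luminal markers, 7 rose and 2 fell, with a median of 1.32. The 2 that fell were Elf5 and Esr1, by -1.24 and -1.21, which are 0.07 and -0.37 without rescaling. Krt18, a luminal keratin, rose by 2.38, from 61.6, 90.1 and 80.0 to 574, 309, 283 and 517, and Krt8, its partner, by 1.52. Basal markers had 1 rise and 2 falls among 11, beside the same 25.8% and 16.2%. Their median was -0.28, which is 1.00 without rescaling. The rise was of Krt14, at 47.9, 123, 37.0 and 42.0 against 17.4, 23.9 and 22.3, and the call is lost without any one of the lactation libraries. M43767 held the high Krt14 value, and the same library had a summed skin marker level of 216 against 2.02 to 3.11 in the other involution glands; the part of skin in this result was not tested.

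Macrophage markers were higher at involution: 9 of 13 rose and none fell in limma's test (10 and 0 at an unadjusted p under 0.05). Their summed level lay between 141 and 211 at lactation and between 248 and 716 on day 2 of involution. Cd68 went from 3.78, 7.87 and 6.74 to 34.0, 17.0, 19.3 and 14.3, and Mrc1, the mannose receptor, rose by 1.54. M43196 was the highest and M44440 the lowest involution gland for the complement genes C1qa, C1qb and C1qc. Of 10 neutrophil markers in the tables, 5 passed the filter and 3 rose, S100a8, Csf3r and Ltf. Ltf, also a milk protein, made up nearly all of the summed level, which lay between 253 and 787 at lactation and between 2379.5 and 3676 on day 2 of involution. S100a8, a subunit of calprotectin, went from 2.59, 2.54 and 2.22 to 144, 36.3, 18.6 and 16.04. Csf3r was at most 1.12 in any library, and its call is lost without the lactation library M44174 and after quantile normalization, and Mpo and Elane, granule enzymes of young neutrophils, were below the filter.

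Of 13 T and NK cell markers in the tables, 10 were below the filter and Thy1 alone rose, a gene that fibroblasts also express. The B and plasma cell list had 7 tested members and no call in either direction with limma (1 higher and 0 lower at an unadjusted p under 0.05). Ccl19, Ccl21a and Ccl21b of lymph node stroma are listed at 0 in all 7 libraries, and Cr2 was near 0. Endothelial markers had 7 rises and 1 fall among 10, and 4 rises without the lactation library M44174 or M42734. Cldn5, an endothelial claudin, went from 9.53, 5.38 and 9.75 to 49.9, 40.5, 99.0 and 87.6, while Kdr, the VEGF receptor, fell by 1.32, a call lost without the lactation library M43767. Adipocyte markers had 4 rises among 12, beside 25.8% of all tested genes. Adipoq, adiponectin, was at 187, 97.0 and 161 and then at 170.4, 307, 346 and 46.8, with overlap and M44440 lowest. Fabp4 rose by 1.52, a call lost without the lactation library M42734 or both M43767 libraries. Plin4 and Adrb3 rose by 1.68 and 1.57 without overlap, and kept their calls in every alternative that rescaled the tables together. Of the adipocyte markers, 9 rose without M44440 and 2 without the lactation library M42734. Fibroblast markers had 2 rises, of Fn1 and Col1a2, among 9, beside 25.8% of all tested genes. Between 1 and 5 rose when 1 library was left out, with 5 without M44440. The call of Col1a2 is lost without any one of the 3 lactation libraries.

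**Figure D3:**
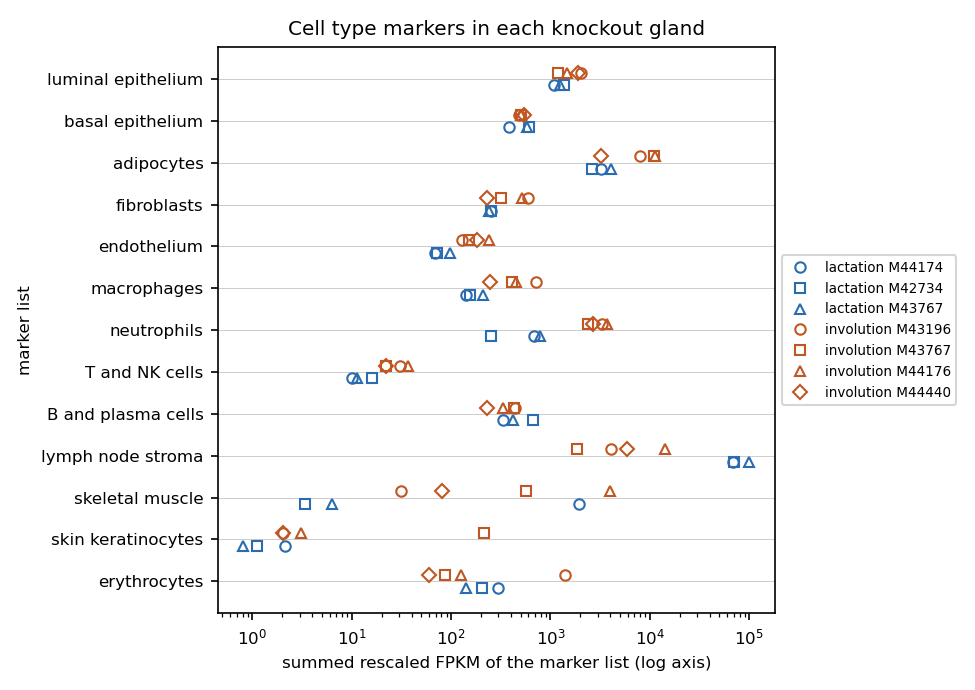
Summed rescaled FPKM of each marker list in each of the 7 knockout libraries, on a log axis, with symbols for single libraries. Macrophage sums at involution (248 to 716) lie above those at lactation (141 to 211), skeletal muscle sums run from 3.36 to 4001.5 in no order of stage, and the lymph node stroma sum is almost all Glycam1, a milk protein.

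Skeletal muscle markers differed widely between libraries. They summed to 1946, 3.36 and 6.27 at lactation and to 31.3, 561, 4001.5 and 80.7 at involution. The high libraries, M44174 and M44176, belong to different stages, and they lay at one end of the second principal component with 14.7% of the variance. Mb, myoglobin, was the only muscle marker of 10 called, and that call is lost in 6 alternative settings. Globin genes were inconsistent: Hba-a1 fell by 4.74 while the near-identical Hba-a2 rose by 4.50, with 572 in M43196 and at most 17.5 in the others. Their reads may be split between the copies, so both values are uncertain.

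Mitochondrial and secretory genes were lower relative to the typical gene. Of 30 oxidative phosphorylation genes, 13 fell and none rose in limma's test (15 and 1 at an unadjusted p under 0.05), with a median of -0.63 that is 0.68 without rescaling, where none of the 13 falls stays negative. Without the lactation library M44174 2 of them fell, without M42734 or the involution library M43767 4, and without M44440 6. Atp5g1, a subunit of the ATP synthase ring, was at 322, 232 and 198 and then at 123, 81.3, 114 and 97.3. Of 25 chaperone and secretory folding genes, 13 fell and 1 rose, with a median of -0.67 that is 0.54 without rescaling, and 5 of the 13 falls stay negative there. P4hb, protein disulfide isomerase, fell from 531, 375 and 410.4 to 120.4, 104, 173 and 110.3, and Ssr2 of the translocon by 1.65. Ddit3, the stress transcription factor CHOP, was the member that rose, from 2.55, 4.62 and 3.15 to 27.5, 29.8, 14.8 and 26.7.

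None of 34 cytosolic ribosomal protein genes passed limma's test in either direction (1 higher and 1 lower at an unadjusted p under 0.05), with a median of -0.07 that is 1.25 without rescaling. Of 30 cell cycle genes, Mcm7, a helicase subunit, rose by 0.92 (3 genes rose without M44174), and Mki67 and Rrm2 fell by 1.54 and 1.24 (the Rrm2 call is lost in 6 alternatives, among them without M44174), with a list median of -0.06 that is 0.68 without rescaling. Mki67, which marks cycling cells, went from 5.23, 6.62 and 7.98 to 2.03, 1.76, 0.971 and 1.74. Top2a, another such marker, was at 3.18, 0.729 and 1.28 and then at 2.28, 1.32, 1.11 and 1.36, with overlap.

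The 10 largest rises with no library at 0 and a mean of at least 5 FPKM ranged from 4.64 to 6.31 on the log2 scale. Wfdc17, a whey acidic protein domain gene of activated macrophages, went from 50.5, 38.4 and 46.7 to 2536.5, 2115, 5497 and 5914, a log2 rise of 6.31 ± 0.40 (adjusted p = 3.92e-05). Rnase1, a secreted ribonuclease, rose by 5.93, and Slpi, a leukocyte protease inhibitor, by 5.61, from 9.41, 13.2 and 8.27 to 779, 398, 637 and 434. Dmkn and Sbsn, secreted proteins of stratified epithelia, rose by 5.35 and 5.21. Their involution values were 77.4 to 139 and 116 to 218 rescaled FPKM, highest in M43196 and M44440, while the skin marker sum was highest in M43767; the part of skin in these rises was not tested. Mt2, a metallothionein, rose by 4.72 and Cyp24a1, which breaks down vitamin D, by 4.85. Hp and Igfbp5, at 4.80 and 4.77, and 1810065E05Rik, at 4.64, complete the 10.

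The 10 largest falls ran from -4.49 to -6.71 and included Slc34a2, Atp2b2 and Fabp3 above. Lao1, an amino acid oxidase of mouse milk, went from 13192, 8565 and 13959.9 to 137, 112, 144 and 66.1, a log2 fall of 6.71 ± 0.33 (adjusted p = 1.34e-05). Olah, the thioesterase that ends medium-chain fatty acids in milk, went from 1333, 824.5 and 927.5 to 21.0, 37.0, 17.7 and 13.02. Gldc, the glycine decarboxylase, fell by 4.97 and Egf, a growth factor secreted into milk, by 4.49. Gsdmc, a gasdermin, fell by 4.95 and Drd4, a dopamine receptor, by 4.62; Hba-a1, given above, is also among the 10. All 10 of these falls stayed negative without rescaling.

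Control glands gave the reference for these changes. In their own fit 2262 of 11568 genes passed (19.6%), 1457 higher (12.6%) and 805 lower (6.96%), with 3 libraries at each stage against 3 and 4 in the knockouts. Without rescaling the control counts were 8546 and 240, and after quantile normalization 1098 and 1188. They also moved when 1 library was left out. Without the involution libraries M44448, M43768 or M43914 there were 332, 246 and 563 rises and 347, 286 and 481 falls. Only 10100, 10110 and 10113 genes were then tested, because the filter still asked for 3 libraries. Without the lactation library M43768 there were 931 rises and 527 falls, and without the lactation library M44175 there were 1703 and 1180. Among 11424 genes tested in both fits, 1428 rose in controls, and 1226 of them also rose in knockouts, which is 85.9% of the control rises and 42.1% of the 2909 knockout rises. Of the other control rises, 200 had the same sign without a call, and 2 had the opposite sign, 1 of them (Spp1) called. Falls gave 729 shared genes, 92.7% of the 786 in controls and 37.7% of the 1936 in knockouts, and 8 of the rest had the opposite sign. The control rises had a median log2 change of 1.23 in controls and 1.07 in knockouts, and the control falls -1.43 and -1.36; choosing genes by the control call favours the control median. The stages are in the same separate tables in both genotypes, so an offset between tables enters both fits alike.

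**Figure D4:**
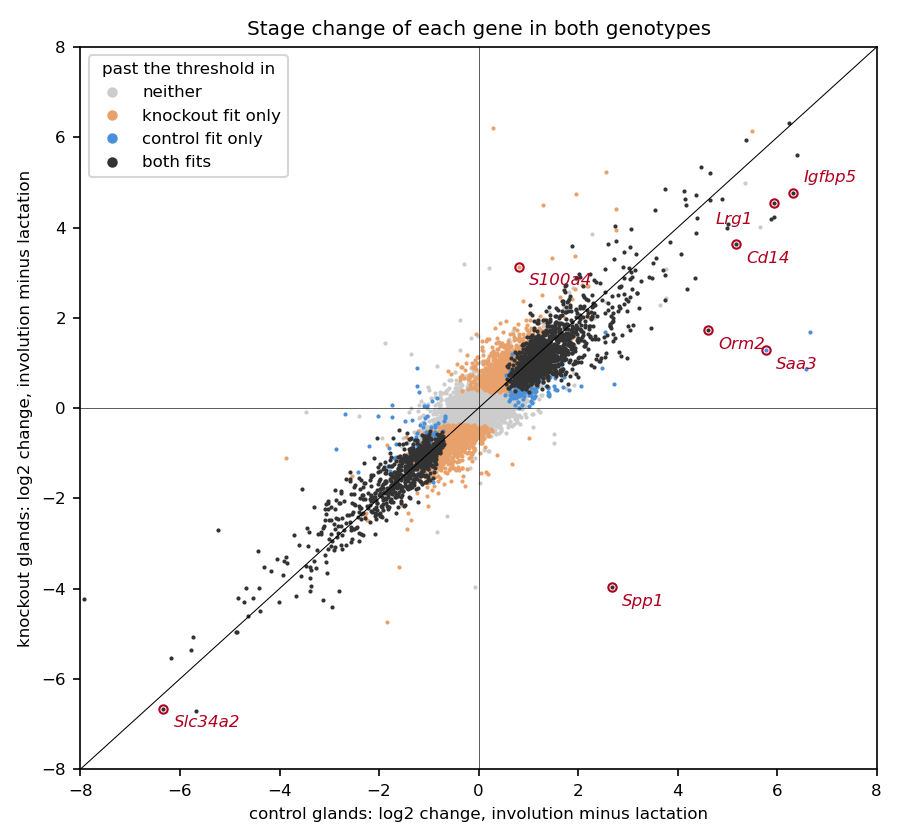
Log2 change from lactation to involution in control glands (x axis) and knockout glands (y axis) for 11387 genes, with the diagonal of equal change; colours show the fit in which a gene passed the threshold and are not a test of the difference. Most genes lie along the diagonal, Spp1 lies at 2.68 in controls and -3.96 in knockouts, and Saa3, at 5.77 and 1.28, lies below the line.

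The difference itself was tested in 1 fit over all 13 libraries, as the knockout stage change minus the control stage change; a constant offset between the tables cancels in it. Of 12667 genes, 9 passed (0.0711%), 2 with a more positive change in knockouts (0.0158%) and 7 with a more negative one (0.0553%). At an unadjusted p under 0.05 the counts were 179 and 205. For 7 of the 9 a group is listed at 0, among them Csn1s2a, at 13294.5 to 26483.5 FPKM on this fit's scale in control glands at involution and at 0 in every other library, and Trf, transferrin, listed at 0 in control glands at involution. Cdk8, a Mediator kinase, is listed at 0 in all 4 knockout glands at involution and at 5.39 to 10.3 in the other groups. Exact zeros of this kind may be failed estimates. With such genes left out, limma called none more positive (176 at an unadjusted p under 0.05) and 1, Spp1, more negative. Without any one of the 3 control libraries at involution, 4 were more negative. Csn1s2a, Mir7036b and Mir1905 are above 0 in these 3 libraries only, so they then fail the filter and are not tested. The fit takes libraries that share a mouse number as independent; with the number as a block (limma's duplicateCorrelation, consensus correlation 0.712 from 2 numbers), 3 were more positive and 16 more negative, and Spp1 and Tnnt2 both passed.

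Spp1 was the clearest difference. On the scale of this fit it stood at 1094, 733 and 771 in control glands and at 3844, 1344 and 1924 in knockout glands at lactation. At involution it stood at 7322, 3179 and 6983 in control glands and at 383, 68.6, 153 and 95.2 in knockout glands. Every control gland was higher at involution than at lactation and every knockout gland lower. The change was 2.68 ± 0.59 in controls and -3.93 ± 0.55 in knockouts, a difference of -6.61 ± 0.81 (adjusted p = 0.00397). Tnnt2, cardiac troponin T, was the other gene with no 0, with -1.21 in controls and 0.36 in knockouts. Its difference of 1.57 (adjusted p = 0.0291) is lost in most alternatives, and its values stayed between 0.408 and 3.04 FPKM.

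**Figure D5:**
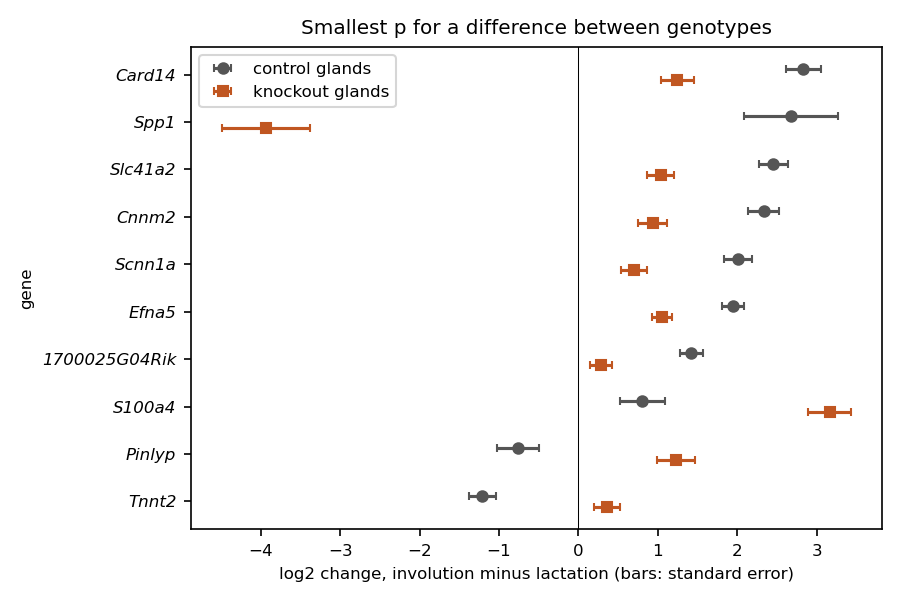
Log2 change from lactation to involution, with standard error, in control (circles) and knockout glands (squares) for the genes with the smallest p for a difference among those with no library at 0. Spp1 rises by 2.68 in controls and stands at -3.93 in knockouts; of the others Tnnt2 alone passes the threshold.

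No other STAT3 list member passed the test of the difference, and several had smaller changes in knockouts at an unadjusted p. In the joint fit Saa3 changed by 5.78 in controls and 1.30 in knockouts, a difference of -4.47 (unadjusted p = 0.0011, adjusted p = 0.58). Its deposited FPKM at involution averaged 445 ± 115 (SD, n = 3) in controls and 36.5 ± 18.8 (SD, n = 4) in knockouts. Osmr differed by -1.25 (unadjusted p = 0.0017, adjusted p = 0.80), Orm2 by -2.86, Socs3 by -1.02, Igfbp5 by -1.53, Cd14 by -1.52 and Lrg1 by -1.36. Of the 41 members, 31 had a more negative change in knockouts (75.61%, against 48.88% of 12130 genes), 12 of them at an unadjusted p under 0.05, and 2 were more positive at that level. At that level stood 34.15% of the list and 3.092% of all genes. The median difference of the list was -0.44, against 0.01 over all genes. A lean to one side is not particular to this list: 0 of 34 ribosomal protein, 1 of 30 cell cycle and 4 of 30 oxidative phosphorylation genes were more negative in knockouts. The members were chosen with earlier results of these data known, so the count is a description.

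Other lists stood at other levels. For chaperones and secretory folding the median difference was -0.52, with 5 of 25 more negative at an unadjusted p under 0.05, among them Sec61a1 and Dnajc3, beside 198 of 12130 over all genes. For milk lipid synthesis the median difference was -0.21 with 1 of 25 more negative at that level. For immediate early genes it was 0.03 with 1 of 23 more positive, beside 177 of 12130 over all genes. Ribosomal protein genes had a median difference of 0.46 and cell cycle genes one of 0.42, and limma gave none at an unadjusted p under 0.05 in either list. S100a4, a calcium-binding protein of motile cells, rose in knockouts from 9.48, 10.2 and 5.18 to 96.9, 75.2, 83.3 and 61.1, and in the joint fit its change was 3.16 against 0.80 in controls. The difference of 2.36 missed the threshold (adjusted p = 0.0637) and passed with the block by mouse number. The genes with no 0 and the next smallest p also missed it. Pinlyp was more positive in knockouts, by 1.99. More negative were Slc41a2 at -1.42, 1700025G04Rik at -1.14, Scnn1a at -1.31, Card14 at -1.58, Cnnm2 at -1.40 and Efna5 at -0.90. Of the 17 genes named for the difference, 7 gained the call with the block.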

How the data were processed

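RNA from flash-frozen mammary glands was extracted with an RNeasy Mini kit, made into TruSeq libraries and sequenced on a HiSeq2000, per the labels' protocols. The deposited values are FPKM per gene symbol, in 1 table per stage of 23951 genes each. The submitters' processing notes name CASAVA, cutadapt, TopHat and the build mm9; no source used here names the program that made the FPKM, its annotation or its strand setting, so overlapping and antisense genes may share reads. The labels count 7 knockout females, yet M43767 (knockout) and M43768 (control) each stand at both stages. The other mouse numbers stand once each.

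The tables were joined on symbol. Each library was divided by its median-of-ratios factor over genes with at least 1 FPKM in all libraries of the fit (8548 genes for the 7 knockouts, 7967 for the 6 controls); knockout factors were 0.579 to 0.601 at lactation and 1.44 to 1.51 at involution, and control factors 0.602 to 0.710 and 1.48 to 1.61. Genes with at least 1 deposited FPKM in at least 3 libraries were tested on log2(rescaled FPKM + 1) with limma 3.58.1 in R 4.3.3 (lmFit, eBayes with trend), with two-sided p adjusted by Benjamini and Hochberg's method over every tested gene and called below 0.05. Fold changes on this scale understate the change of low genes. A second fit took the controls, and a joint fit of all 13 libraries the difference between the genotypes' stage changes. The fit was tested on simulated data with known changes and factors.

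Genes named in the text are a set given whatever their values, the 10 largest rises and falls with no library at 0 and a mean of at least 5 FPKM, up to 3 members per gene list with the largest called change, the 10 smallest p for the difference among genes with no 0 besides those that passed, and genes at 0 in a whole stage and at least 100 FPKM in the other. Other members of the 36 lists were named after their values were seen. The members and lists were chosen with earlier results of these data known. Counts of reads are not used here, so absolute depth is unknown. Low FPKM values fall in part on whole-number steps, and by these steps a rescaled FPKM of 1 stands for 0.426 to 0.557 relative units of fragments in the lactation libraries and 0.663 to 2.00 in the involution libraries, so low genes are less precise at lactation. In these steps 49.8% to 79.7% of the low-value ratios between libraries of different tables came out whole and 60.9% to 74.9% within a table, counted for values up to 0.3 FPKM and within 0.02 on the log2 scale of a ratio of whole numbers up to 5, which is too few to recover reads. The entry Mir6236 took 3.78% to 44% of a library's summed FPKM, and 58 tested genes are at 0 in every library of a knockout stage. Promoter windows are RefSeq's, on GRCm38.p6, and no coordinate was moved between builds.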

Additional observations from a re-analysis of the deposited data

Results flagged for a closer look

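Among the 4 involution knockout glands, 132 named genes were screened for a library far from the other 3, and 5 had one; chance gives about 1 in 20 groups. Egf was at 2.01 rescaled FPKM in M44176 and at 1.25 to 1.28 in the others. Hba-a2 was at 572 in M43196 and at 12.5 to 17.5 in the others, and S100a8 was at 144 in M43196 and at 16.04 to 36.3. Il15 was at 10.2 in M43767 and at 5.62 to 6.36 in the others. Krt14 was at 123 in M43767 and at 37.0 to 47.9, and that library also held the highest skin marker sum, 216.

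The stage change differed between the genotypes in limma's test for 9 genes, given as knockout minus control change on the log2 scale. Spp1 stood at -6.61 and Tnnt2 at 1.57, with no library at 0. The others rest on groups listed at 0: Csn1s2a at -14.25, Mir7036b at -8.80 and Mir1905 at -6.62, which are above 0 in control glands at involution only, and Trf at 11.95, which is at 0 there. Rn45s at -11.35 and Mir22 at -5.62 are above 0 in knockout glands at lactation only, and Cdk8 at -3.15 is at 0 in knockout glands at involution. Exact zeros of this kind may be failed estimates, and no fold is drawn from these 7.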

How the results depend on the processing

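In knockout glands 10187 genes were higher and 300 lower without rescaling, 10193 and 300 with rescaling inside each table only, 1751 and 1131 without both libraries numbered M43767, and 1247 and 847 at 2-fold. Leaving out 1 library gave 2200 to 3075 higher and 1518 to 1916 lower. Control counts were 8546 and 240 without rescaling, 901 and 453 with scaling to the total outside milk proteins and short RNA, and 3293 and 1975 with array weights; leaving out 1 library gave 246 to 1703 and 286 to 1180. The difference gave 1 gene higher with the total scaling, 4 with array weights, and 0 higher and 1 lower without genes with a doubtful 0. Leaving out 1 library gave 1 to 2 higher and 4 to 7 lower. Genes above 0 in only 3 libraries leave the test when 1 of these is left out.

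Of 135 named genes with a stage test 123 were called. Of these, 105 kept call and sign in every alternative that rescaled the tables together, 18 lost the call in at least 1 and 0 changed sign. The uncalled genes Ctsd, Lalba, Plin1, Saa3 and Tnnt2 each passed in at least 1 of these alternatives. Without rescaling, and with rescaling inside each table only, the sign turned for Atp5g1 (0.059), Atp5o (0.22), Cox6a1 (0.22), Elf5 (0.075), Stat5a (0.21), Itga6 (0.59), Oxtr (0.51), Lalba (0.25), Jak1 (1.02 in both, rounded), Cish (1.11), Aqp5 (0.80) and Top2a (0.72 and 0.71); both settings keep the difference in scale between the tables. Uncalled values near 0 also turned: Aqp5 was 0.014 with the total scaling, 0.38 with a pseudocount of 0.1 and 0.52 with array weights, and Top2a was 0.0085 and 0.14 with the last 2. Leaving out 1 library moved Adipoq from -0.081 to 0.87, Aqp5 from -0.82 to 1.20, Cish from -0.36 to 0.085, Ctsb from -0.076 to 0.19 and Top2a from -0.33 to 0.32. The cause was not tested.

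No paired analysis was possible because only 1 mouse number stands at both stages within each genotype. The joint fit has 2 such numbers, and with the replicate block by mouse number, added after seeing the data, the difference gave 3 genes higher and 16 lower, among them the 9 of the fit without it; as a fixed term the number leaves 0 residual degrees of freedom. Where a fit left 2 libraries in a group, limma pooled the spread over groups. A filter on rescaled FPKM, chosen after seeing the data, gave 2970 higher and 2007 lower among 11649 genes tested in knockouts. Low values limit genes near 1 FPKM, most of all at lactation.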
